A study of Mus musculus with 10 samples.

Results

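The B6 and Cast alleles of 11543 autosomal genes were compared within each of 10 transient transcriptome sequencing (TT-seq) samples of a hybrid mouse embryonic stem cell (ESC) line. These were the genes outside the X and Y chromosomes with 10 or more allelic reads (B6 plus Cast) in every sample, out of 23326 autosomal genes and 24386 genes listed in all. Chromosome 16 held 393 of them and is described apart from the 11150 genes of the other autosomes. The line, TX1072, is female and wild type, and carries one chromosome set of Mus musculus castaneus (Cast) and one of C57BL/6 (B6), with a doxycycline (DOX) inducible promoter at Xist on the B6 X chromosome. Cells grew on gelatin in serum with LIF and 2i and were exposed to DOX at 1 µg/ml for 0, 4, 8, 12 or 24 h, with 2 replicates at each time. New RNA was labelled with 0.5 mM 4-thiouridine for 5 min. All 10 samples served here as repeated measurements of the same pair of alleles, so the values are averages over DOX time. They come from 1 cell line, and the tests cover the spread between these libraries only.

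In a hybrid cell both alleles of a gene share the same nucleus and the same pool of transcription factors. A lasting difference between them is therefore commonly read as acting in cis, through sequence or chromatin state carried by the chromosome itself. Short metabolic labelling captures RNA while it is being made, introns included, so that allele differences in RNA decay weigh less than in total RNA. ESC held in LIF and 2i are known for a naive state in which the core factors Pou5f1, Nanog and Esrrb are active.

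The ESC identity was checked against markers. Esrrb stood at 1028 ± 34.4 CPM, the gene's count scaled to the total count of its sample (SD, n = 10), Zfp42 at 333.1 ± 17.0 CPM, Nanog at 301 ± 15.1 CPM and Pou5f1 at 114.4 ± 12.3 CPM. Sox2 was listed at 0 in every library and was not analysed further. Markers of other cell types that the culture could hold were low, the highest being T, a mesoderm gene, at 6.59 ± 1.03 CPM. Sox1 of neural cells was also listed at 0 in every library and, like the 0 of Sox2 in ESC, is not read as absence. The other markers reached at most 3.09 CPM, for Cdx2 of trophoblast, with Pax6 of neural cells at 0.271 CPM, Gata6 of primitive endoderm at 0.528 CPM and Col1a1 of fibroblasts at 0.639 CPM. Total counts ran from 18809046 to 22274929 a sample, and 49.2% to 52.8% of these could be assigned to an allele.

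The B6 share of a gene is its B6 reads over its B6 plus Cast reads, in percent. Autosomal reads carried slightly more B6 than Cast, with a B6 percent from 51.8 to 52.1 in the 10 samples. The log2 B6 to Cast ratios given below are relative to the scaling centre of each sample, which lay at a B6 share of 51.9% to 52.4%. Without this scaling the median ratio shifted by 0.12 on the log2 scale toward B6. B6 is also the reference genome, and a mapping advantage of B6 reads and a true excess of B6 transcription cannot be told apart from these counts.

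Most genes outside chromosome 16 showed an allele difference, and most of these differences were small. In edgeR's quasi-likelihood test with Benjamini-Hochberg adjustment, 7708 of 11150 genes (69.1%) passed an adjusted p of 0.05. B6 was the higher allele in 4136 genes (37.1% of those tested) and Cast in 3572 (32.0%). A difference of 2-fold or more was seen in 1374 genes (12.3%), 781 with B6 higher (7.0%) and 593 with Cast higher (5.32%). Without scaling between the alleles, B6 took 71.0% of the calls instead of 53.7%, and 65.8% of the calls of 2-fold or more instead of 56.8%. Of the 7708 genes, 6490 were called toward the same allele without scaling and 116 toward the opposite one. The median absolute log2 ratio over all 11150 genes was 0.24, and 3629 genes lay within 1.1-fold of the centre.

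At the far end, 94 genes were 10-fold or more higher on B6 and 68 on Cast. The mean B6 share was above 90% in 122 genes and below 10% in 71. Of the called genes, 5249 (68.1%) fell on the same side of the centre in all 10 samples, against 2 of the genes without a call. The calls rest on the same 10 ratios, so this contrast is no independent check of them. Each sample's shares correlated with the mean of the other 9 at r = 0.946 to 0.956 over 8808 genes with 50 or more allelic reads, which describes genes and not replicates. The median chi-square per degree of freedom of a gene's share over the 10 samples was 1.11, with quartiles of 0.779 and 1.54.

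**Figure D1:**
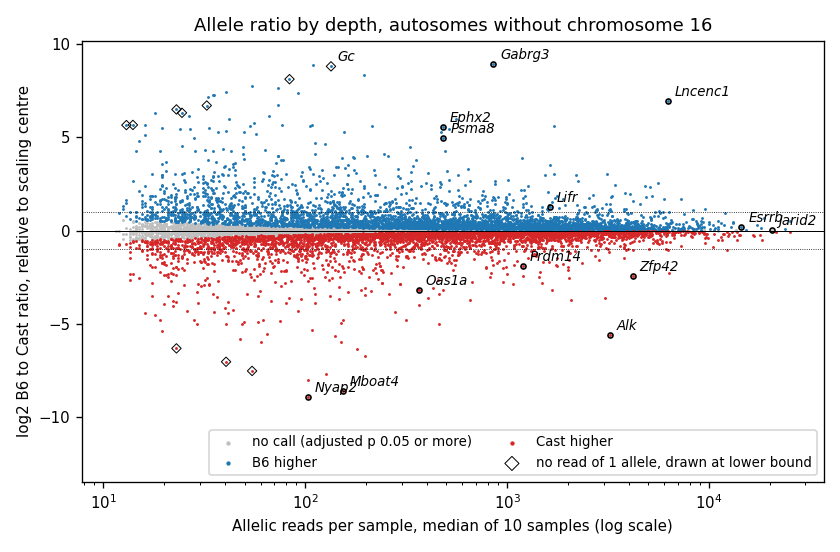
Each point is a gene outside chromosome 16, with the median allelic reads per sample on a log axis and the log2 B6 to Cast ratio relative to the scaling centre on the vertical axis. Dotted lines mark a 2-fold difference, and diamonds mark the 10 genes with no read of 1 allele at the bound that 3 reads would give; calls of 2-fold or more thin out toward the right, where Lncenc1 and Alk stand far from 0 and Esrrb and Jarid2 near it.

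Depth set how small a difference could be called. Among genes whose lowest sample held 10 to 49 allelic reads, 54.5% of 2342 were called and 23.8% were called at 2-fold or more. Among genes with 1000 or more in every sample, 82.3% of 2498 were called, but 4.96% at 2-fold or more. The median SE of the log2 ratio fell from 0.18 in the shallow class to 0.02 in the deep one. Shallow genes thus had fewer calls and more large ones, and small differences among them were not detectable at this depth. At the edge of the rule, 226 autosomal genes had 10 or 11 reads in their lowest sample and entered, and 247 with 8 or 9 did not.

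Weakly transcribed genes differed more between the alleles. In the lowest quartile of total CPM per kilobase of gene span, 30.6% of 2788 genes were called at 2-fold or more, with a median absolute log2 ratio of 0.58. In the highest quartile this was 3.19% of 2788, with a median absolute log2 ratio of 0.15. The median allelic reads were 59.5 per sample in the first and 1081 in the second, and the part of depth in this was not tested. Long noncoding RNA genes were called at 2-fold or more in 28.8% of 364 cases, protein-coding genes in 11.7% of 10536. The median allelic reads of these classes differed as well, at 68.5 per sample for long noncoding and 326.2 for protein-coding genes. Genes in the longest quartile of span (over 63.5 kb) were called in 82.9% of cases and at 2-fold or more in 18.6%, those in the shortest in 53.4% and 8.68%, and the median allelic reads per sample were 1049 and 97.5.

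The share of a gene's reads that could be assigned to an allele, which grows with the number of strain differences in its reads, moved with the balance of calls. In the lowest quartile of this share (up to 48.3% of the gene's total count), B6 was higher in 22.9% and Cast in 32.5% of 2788 genes. In the highest quartile (68.9% and above), B6 was higher in 47.1% and Cast in 32.6%. The median B6 share was 51.5% in the first and 53.7% in the second, and calls of 2-fold or more rose from 6.81% to 20.6%. The B6 calls thus moved across these quartiles while the Cast calls stayed level, and the part of read mapping in this was not tested.

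The strongest B6 genes were named by size among called genes with 50 or more allelic reads in every sample, all 10 samples on the same side and no place in the imprinted lists. Gc, which encodes the vitamin D binding protein (chr5:89417511-89457898, minus strand, mm10), had 1354 B6 reads and 0 Cast reads over all samples. Against the 3 reads that a count of 0 allows over the 10 samples, B6 was at least 451-fold higher. Clca3b, of the calcium-activated chloride channel regulator family (chr3:144822624-144849302), had 840 B6 reads and again no Cast read, at least 280-fold higher on B6. Tmprss11f, a serine protease gene, had 1114 B6 reads and 1 Cast read, a ratio of 1114 with an exact 95% counting interval from 199.5 to 44040. Intervals and bounds of this kind cover counting error only. All these genes were weakly transcribed, at 5.57 to 9.91 CPM.

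Lncenc1 combined a near single-allele pattern with high transcription. This long noncoding RNA of naive ESC (chr13, 389 CPM) had a B6 share of 99.16% in the lowest, 99.24% in the median and 99.45% in the highest sample. The counts behind this were 60843 B6 reads and 441 Cast reads. The 10 samples thus spanned less than 1 percentage point, and the fitted ratio was 126.2-fold (log2 6.98 ± 0.04 SE, adjusted p = 2.2e-31). Gabrg3, a GABA-A receptor subunit (60.7 CPM), ran from 99.5% to 100% with a median of 99.8%, on 8595 B6 and 15 Cast reads. Lrrc31 ran from 97.8% to 99.3%, and Nckap1l, a haematopoietic actin regulator, from 99.0% to 100%. Bcl2l14, of the BCL2 family, ran from 97.3% to 100% on 716 B6 and 5 Cast reads.

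On the Cast side the leading gene with deep coverage was Alk, a receptor tyrosine kinase gene (chr17, 228.2 CPM). Its B6 share was 1.21% in the lowest, 2.29% in the median and 2.61% in the highest sample, on 725 B6 and 32657 Cast reads. Cast was higher in all 10 samples, by 49.2-fold (log2 -5.62 ± 0.07 SE, adjusted p = 1.6e-13). Nyap2 had 1 B6 and 1020 Cast reads, a ratio of 1020 (exact 95% interval 182.7 to 40330). Mboat4, the ghrelin O-acyltransferase, had 3 B6 and 1561 Cast reads, a ratio of 520.3 (177.7 to 2526), and Zbbx 3 and 1030, a ratio of 343.3 (117.2 to 1668). These genes were weakly transcribed, at 8.21 to 16.3 CPM. Agbl1 (5 B6 and 1227 Cast reads), Sytl3 (19 and 1990), Atp1a4 (25 and 1520) and the transporter gene Abcc3 (29 and 1416) followed, with mean B6 shares from 0.408% to 2.01%.

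Genes with no read of 1 allele in any sample were rare. There were 10 outside chromosome 16, of which Gc, Clca3b, Ubd, Mir703, Vmn2r84, Skint8 and Zp3r were read from B6 and Ccl9, Tspan10 and Lrrc52 from Cast. Ccl9, a chemokine gene, had 558 Cast reads and was at least 186-fold higher on Cast. Tspan10 had 397 Cast reads, at least 132.3-fold higher. The 0 reads allowed a share of the unread allele of up to 0.222% for Gc and 1.97% for Skint8, the shallowest of them. These bounds cover counting error only, and the part of read mapping in the 0 reads was not tested.

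A second group of genes was read deeply from both alleles, with 1000 or more allelic reads in every sample and a mean share between 20% and 80%. Tdrd12, a Tudor domain gene of the piRNA pathway, led toward B6 with 79.1% in the lowest, 79.5% in the median and 81.9% in the highest sample, 3.63-fold higher on B6 (adjusted p = 6.4e-58). Sdc2, a heparan sulfate proteoglycan, ran from 75.7% to 82.6%, and Hs6st3, a heparan sulfate sulfotransferase, from 78.1% to 81.7%. Ubxn2a ran from 77.8% to 80.7% and Rnf165 from 77.3% to 81.6%. In each of these 5 genes B6 was higher in every sample, by 3.51-fold to 3.63-fold.

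Toward Cast, Rabgef1, a Rab5 exchange factor, had a B6 share of 17.7% in the lowest, 20.9% in the median and 22.5% in the highest sample, 4.30-fold higher on Cast (adjusted p = 1.9e-17). Pcca, a subunit of propionyl-CoA carboxylase, ran from 20.7% to 25.01%. Ctsb, the lysosomal protease cathepsin B, ran from 20.3% to 24.7%, with an adjusted p of 4.3e-56. Prdm14, a regulator of naive pluripotency, ran from 20.5% to 24.4% with a median of 22.8%, 3.71-fold higher on Cast (adjusted p = 3.7e-52). Eya1, a developmental phosphatase and coactivator, ran from 21.3% to 26.3% and Csrnp3 from 19.01% to 25.6%. All 10 samples lay below the centre for each of these 6 genes.

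The most even deep genes were Nat10, Fgfr1, Ddx1 and the E-cadherin gene Cdh1. Their mean B6 shares were 52.1% to 52.2%, at the scaling centre, and their log2 ratios were 0.00 with SEs of 0.02 to 0.03. They were picked for the smallest ratios, so values this near the centre follow from the choice. An interval of 2 SE around the log2 ratio of Cdh1 reached less than 0.04 to either side in this fit, which gives its precision only. Without scaling, all 4 genes were called toward B6 at log2 0.12.

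**Figure D2:**
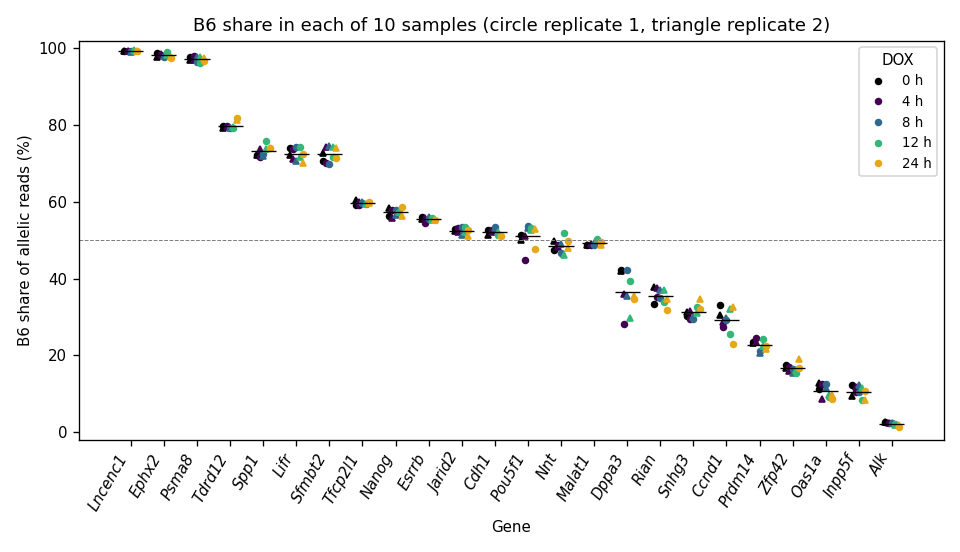
The B6 share of allelic reads, in percent, is plotted for each of the 10 samples and 24 named genes, with the colour giving hours of DOX, circles and triangles the replicates and bars the mean. The samples of Lncenc1 lie above 99% and those of Alk below 3%, while Dppa3 and Ccnd1, read less deeply, spread over 10 or more percentage points.

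Of 36 pluripotency factors listed, 31 could be tested outside chromosome 16. In these, 15 were higher on B6, 11 on Cast and 5 did not pass. The median absolute log2 ratio of the list was 0.35, against 0.24 over all genes, and 6 members (19.4%) reached 2-fold against 12.3% of all genes. The called share was 83.9% against 69.1%, and members were read more deeply, with a median lowest count of 982 against 254. Without scaling the counts were 18 on B6 and 8 on Cast, with 1 member turning to the opposite allele. No single direction held for the list, whose median was 0.06.

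Among the members higher on B6, Lifr, Il6st and Stat3 take part in LIF signalling, which sustains ESC self-renewal, and were singled out after their values were seen. Lifr, the receptor that binds LIF, had a B6 share of 72.5% ± 1.58 (SD, n = 10), Il6st, its signalling partner gp130, 58.9% ± 0.803, and Stat3, the factor they activate, 55.0% ± 1.37. Spp1, which encodes osteopontin, ran from 71.8% in the lowest to 73.1% in the median and 75.9% in the highest sample and was 2.51-fold higher on B6. Tcl1, an Akt coactivator, stood at 68.6% ± 5.17.

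The factors of the naive network split by allele. Esrrb, a nuclear receptor, was 55.5% B6 (54.5% to 56.1%, 1.14-fold, adjusted p = 5.8e-23), and its small difference rested on 12496 or more allelic reads in each sample. Tfcp2l1 was 59.7% B6 ± 0.435, Nr5a2 58.4% ± 0.908, Tet1, a 5-methylcytosine dioxygenase, 58.2% ± 0.877, and Nanog 57.2% ± 0.997. Zfp42, the naive marker also known as Rex1, had a B6 share of 15.4% in the lowest, 16.5% in the median and 19% in the highest sample and was 5.47-fold higher on Cast (adjusted p = 1.7e-19). With Prdm14, Dppa3 (36.5% ± 4.99), Dppa5a (42.3% ± 2.56), Lin28a (45.1% ± 3.43) and Klf5 (48.1% ± 0.985) it made up most of the Cast side. Id1, a target of BMP signalling, was the most skewed at 14.2% ± 10.6 but rested on 11 to 30 reads a sample. Pou5f1 (log2 -0.06 ± 0.04 SE), Klf4 (0.05 ± 0.05), Klf2 (-0.25 ± 0.12), Lefty2 (0.05 ± 0.04) and Id3 (0.33 ± 0.22) did not pass the test.

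Autosomal genes of chromatin repression and of Xist-linked silencing held few large differences. Of 52 members tested, 15 were higher on B6, 19 on Cast and 18 did not pass, a called share of 65.4% against 69.1% of all genes. The median absolute log2 ratio was 0.10, 1 member (1.92%) reached 2-fold, and 53.9% lay within 1.1-fold of the centre against 32.6% of all genes. The lowest allelic count of a list member was higher, at a median of 1368 against 254 for all genes. Without scaling, 30 were higher on B6 and 8 on Cast, so the balance between the alleles in this list rests on the scaling.

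Subunits of the same complex had different allele shares. Eed, a core subunit of Polycomb repressive complex 2, was 64.8% B6 ± 0.907 and its catalytic partner Ezh1 67.9% ± 3.29, whereas Ezh2 was 49.6% ± 0.702 and Suz12 52.2% ± 0.682. Jarid2, an accessory subunit and the most deeply read member with 17051 to 22550 reads a sample, ran from 51.2% to 53.5% (log2 0.02 ± 0.01 SE, adjusted p = 0.21). Phf19, another accessory subunit, was 36.1% ± 4.23 on 23 to 46 reads. Rnf2, the main ubiquitin ligase of Polycomb repressive complex 1, was 64.6% B6 ± 1.05. Dnmt3a, a de novo DNA methyltransferase, was 38.9% ± 2.12 while Dnmt3b did not pass at 52.2% ± 1.17. Hdac7 was the member that reached 2-fold, with 58.1% to 81.8% B6 on 36 to 62 reads, and Hdac3 did not pass at 53.0% ± 3.17. Spen, a repressor that binds Xist, was 50.7% B6 ± 1.06, close to the centre.

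The lists of the ribosome, the proteasome and the cell cycle were read more deeply than genes at large, with median lowest counts of 984, 391.5 and 725 allelic reads against 254, and deep genes reached 2-fold less often in general. Of 66 cytosolic ribosomal protein genes, 28 were higher on B6 and 23 on Cast, a called share of 77.3% against 69.1% of all genes. None reached 2-fold, against 12.3% of all genes. Rpl29 was the furthest toward B6 at 64.7% ± 3.22 and Rpl10l the furthest toward Cast at 36.6% ± 5.65, while Rpl3, the most deeply read, ran from 47.7% to 49.6%. This family has many processed copies with which reads can be shared, and its allele values are uncertain. Of 32 proteasome subunits, 9 were higher on each allele, a called share of 56.2% against 69.1% of all genes. Of these subunits 3.12% reached 2-fold and 62.5% lay within 1.1-fold, against 12.3% and 32.6% of all genes.

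The proteasome list held 1 strong exception. Psma8, the testis form of a 20S core subunit, ran from 96.2% to 98.0% B6 with a median of 97.2% and was 31.8-fold higher on B6 (adjusted p = 1.4e-56). Its list partner Psma7, which it replaces in germ cells, did not pass at 51.6% ± 4.20. Of 52 cell cycle and replication genes, 18 were higher on B6 and 10 on Cast, a called share of 53.8% against 69.1% of all genes, and 1.92% reached 2-fold against 12.3%. Cyclin D1, Ccnd1, was the member that reached 2-fold, with 23.0% in the lowest, 29.5% in the median and 33.1% in the highest sample, 2.64-fold higher on Cast (adjusted p = 1.2e-27). Plk1, a mitotic kinase, was 64.3% B6 ± 3.11. Without scaling the 3 lists moved to 41 B6 and 15 Cast calls, 15 and 4, and 37 and 6.

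Genes that metabolise glutathione and foreign compounds differed strongly, and in both directions. Of 57 members tested, 21 were higher on B6 and 23 on Cast (27 and 20 without scaling), a called share of 77.2% against 69.1% of all genes, and 18 (31.6%) reached 2-fold, against 12.3% of all genes. The median absolute log2 ratio was 0.47. The lowest allelic count of a member was 112 at the median, below the 254 of all genes. Ephx2, the soluble epoxide hydrolase, ran from 97.4% to 99.1% B6 with a median of 98.1% on 427 to 557 reads a sample and was 46.8-fold higher on B6 (adjusted p = 7.5e-57).

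Other enzymes of this list followed in both directions. Aldh1a2, which makes retinoic acid, was 92.1% B6 ± 2.72, Gpx4, which reduces lipid peroxides, 76.8% ± 6.15, and Gclm, a subunit of glutamate-cysteine ligase, 70.1% ± 3.19. On the Cast side, Mgst2 was 9.59% B6 ± 6.29, Sult6b1 21.6% ± 1.85, Aldh9a1 24.6% ± 1.91 and Gstz1 29.3% ± 2.83. Gsr, glutathione reductase, was the most deeply read at 53.9% to 56.97% and was 1.13-fold higher on B6. Gstp2 was 18.3% ± 4.14 beside Gstp1 at 39.6% ± 6.48 and Gstp3 at 56.2% ± 8.24, and Cyp2b23 was 95.0% ± 1.74. Near-identical copies occur in these families, and their allele values are uncertain.

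Of 28 antiviral and MHC genes tested, 11 were higher on B6 (39.3%, against 37.1% of all genes) and 9 on Cast (32.1% against 32.0%), which is near the rate of all genes. Without scaling the counts were 13 and 7. At 2-fold or more there were 5 (17.9% against 12.3%). Oas1a, a sensor of double-stranded RNA, ran from 8.62% to 12.7% B6 with a median of 10.4% and was 9.25-fold higher on Cast (adjusted p = 1.2e-48). Stat2, a factor of type I interferon signalling, was 64.8% B6 ± 4.92. Ddx58, the RNA sensor RIG-I, was 78.5% B6 ± 5.81. H2-T3 had 161 B6 and 3 Cast reads, a ratio of 53.7 (exact 95% interval 18.0 to 263), and belongs to a family of close copies.

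Zinc finger genes, of which 308 were tested, had a median absolute log2 ratio of 0.24, as did all genes. B6 was higher in 123 (39.9%, against 37.1% of all genes) and Cast in 79 (25.6% against 32.0%), or in 171 and 57 without scaling. At 2-fold or more there were 7.47%, against 12.3% of all genes. Zfp783 was the furthest toward B6 at 87.5% ± 6.92, on 29 to 51 reads a sample, and Zfp42 the furthest toward Cast. Zfp704, the most deeply read, was 53.6% ± 0.448. Of 22 nuclear long noncoding RNA genes, 6 were higher on B6 and 10 on Cast (10 and 9 without scaling). The called share was 72.7%, near the 69.1% of all genes, at a median lowest count of 1055 allelic reads against 254. Some members are also textbook imprinted genes, for which strain and parent of origin cannot be told apart. Of these, Meg3, Rian, Mirg and Airn were higher on Cast, Kcnq1ot1 was higher on B6 and H19 did not pass. Besides Lncenc1, Snhg3, a snoRNA host gene, ran from 29.4% to 34.6% B6 and was 2.39-fold higher on Cast, and Malat1 ran from 48.7% to 50.4%.

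Among the substrain variant genes, Nnt, the mitochondrial transhydrogenase that carries an exon deletion in C57BL/6J, was nearly even. It ran from 46.1% to 51.9% B6 with a median of 48.5%, 1.155-fold higher on Cast (adjusted p = 2.6e-06), with 9 of 10 samples below the centre. Cyfip2, an actin regulator that differs between C57BL/6 substrains, was 35.5% B6 ± 2.56. Nlrp12 did not pass at 50% ± 3.54. The sources used here do not give the substrain of the B6 chromosomes.

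In textbook imprinted genes, strain and parent of origin cannot be told apart in a line from 1 cross. Of 18 genes known for expression from the paternal allele, 9 were higher on B6 and 7 on Cast (10 and 5 without scaling), and of 17 known for maternal expression 5 and 7 (8 and 5). The called shares were 88.9% and 70.6%, against 69.1% of all genes. Members of both lists were read more deeply, with median lowest counts of 568 and 614 allelic reads against 254. Inpp5f was furthest from the centre and ran from 8.30% to 12.2% B6, on 415 to 545 reads. Sfmbt2, known for paternal expression in the placenta, ran from 69.8% to 74.4% with a median of 72.2%. Kcnq1ot1, a paternal noncoding RNA, ran from 52.5% to 54.5% and the maternal Igf2r was 50.2% ± 1.68. The maternal noncoding RNAs Meg3 (36.4% ± 3.18), Rian (35.3% ± 2.00) and Mirg (33.5% ± 2.46), which lie in one cluster on chromosome 12, were all higher on Cast, while Peg3 (64.7% ± 2.21) and Usp29 (72.0% ± 3.78), neighbours on chromosome 7, were higher on B6.

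**Figure D3:**
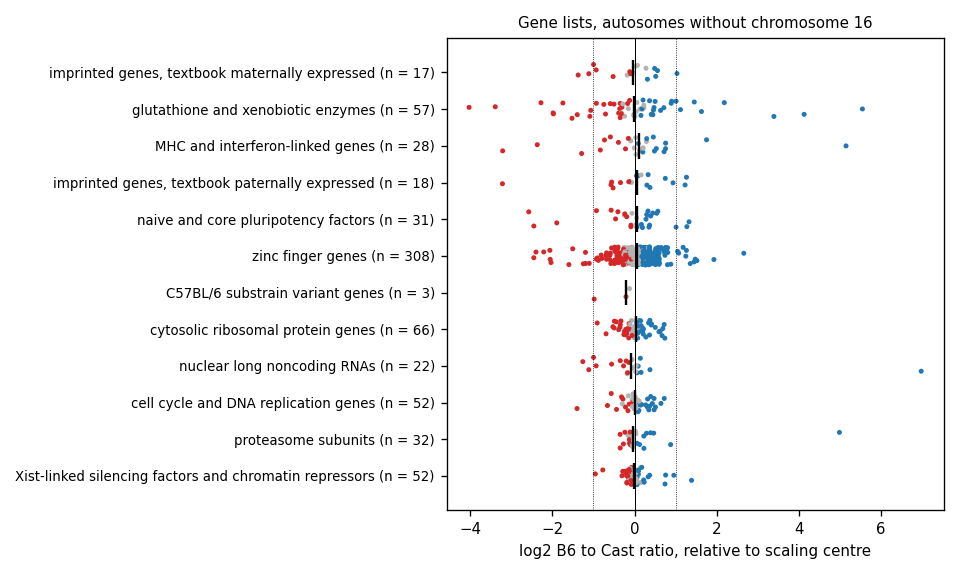
Points are the members of each gene list outside chromosome 16, placed by log2 B6 to Cast ratio relative to the scaling centre, with black bars at the list medians and blue, red and grey for B6 higher, Cast higher and no call. Lists are ordered by median absolute ratio; the repressor, proteasome and cell cycle lists lie mostly within the dotted 2-fold lines, with Psma8 near 5, and the xenobiotic list reaches from -4.03 to 5.55.

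Neighbouring genes resembled each other in allele ratio. Over 11132 pairs of successive tested genes outside chromosome 16, Spearman's rho of the log2 ratios was 0.19. It was 0.29 for 670 divergent pairs with starts within 1 kb and 0.31 for 584 pairs that overlap on opposite strands. For pairs apart by less than 10 kb rho was 0.20, for 10 to 50 kb 0.24, for 50 to 200 kb 0.18 and for more than 200 kb 0.05. At 2, 5 and 10 places apart in gene order it was 0.08, 0.02 and 0.00. These are descriptions across genes, which share libraries and are not independent. Where both genes of a pair were called at 2-fold or more, 220 of 284 pairs (77.5%) favoured the same allele, and 37 of 63 pairs (58.7%) with a gap over 200 kb did.

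The longest run of successive tested genes called toward the same allele was picked out after its values were seen. It held 17 genes higher on B6, from Trank1 to Gpd1l (chr9:111311739-114933987). Their log2 ratios ran from 0.11 to 2.23 with a median of 0.91, and 7 reached 2-fold. Trim71, an RNA-binding regulator of ESC and the most deeply read of them, was 67.2% B6 ± 0.738, Cnot10, of the deadenylase complex CCR4-NOT, 74.6% ± 0.941, and Dync1li1, a dynein chain, 74.1% ± 0.944. Within the run Ubp1 (55.1% ± 1.03) and Cmtm6 (54.1% ± 2.06) were close to the centre. A run of 7 genes from Ppid to Pdgfc on chromosome 3 had the largest median of all runs of 6 or more, 1.52, with the growth factor gene Pdgfc at 86.3% B6 ± 0.660. The largest toward Cast, from Slc22a22 to Zhx1 on chromosome 15 (chr15:57243771-58076508), had 7 genes and a median of -1.49, with Zhx2, a transcriptional repressor, at 25.4% ± 5.83 and Fam83a at 3.31% ± 2.92.

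By chromosome, the medians outside chromosome 16 were close to each other. The median log2 ratio ran from -0.03 on chromosome 6 to 0.09 on chromosome 3, and the called share from 58.8% on chromosome 19 to 76.4% on chromosome 12. Chromosome 3 had 244 genes higher on B6 (44.5% of 548) and 134 on Cast (24.5%). Chromosome 8 had 268 and 163 (41.4% and 25.2% of 647), and chromosome 4 had 263 and 312 (33.1% and 39.2% of 795). Over all genes outside chromosome 16 these shares were 37.1% and 32.0%, and their balance moved toward B6 without scaling. Outside chromosome 16, chromosome 18 held the largest share at 2-fold or more, 18.0% of 322 genes, against 12.3% of all genes.

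**Figure D4:**
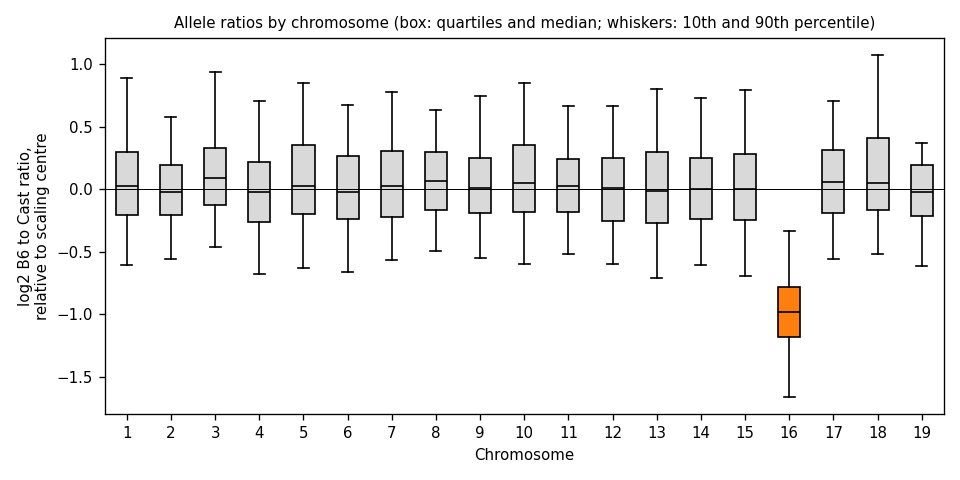
Box plots of log2 B6 to Cast ratio relative to the scaling centre for the genes of each autosome, with boxes from the lower to the upper quartile, a line at the median and whiskers at the 10th and 90th percentiles. The box of chromosome 16, in orange, lies below 0 as a whole with a median of -0.98, and the other 18 medians lie between -0.03 and 0.09.

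Chromosome 16 stood apart from the other autosomes. Its genes had a median B6 share of 35.5% ± 0.2 (SD, n = 10 samples), with a range of 35.2% to 35.7%, against 52.6% ± 0.0965 for the other autosomes, with a range of 52.3% to 52.7%. The ranges of the 10 samples did not overlap. The difference was -17.1 ± 0.253 percentage points, with the same sign in all 10 samples. An exact paired sign-flip test over samples gave a two-sided p of 0.00195, the smallest that 10 samples can give. All libraries come from 1 line, so this p covers the spread between libraries only. The median log2 ratio was -0.98, near a 2-fold excess of Cast. Of 393 genes, 361 (91.9%) were higher on Cast, 21 (5.34%) on B6 and 11 did not pass. Chromosome 16 took 3.34% ± 0.0216 of the autosomal B6 reads and 6.49% ± 0.0431 of the autosomal Cast reads.

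The shift ran along the whole chromosome. In 10 successive bins of 10 Mb the median log2 ratio lay between -0.88 and -1.35, and the Cast-higher genes were 41 of 41 in the first bin and 50 of 57 in the last. Around the chromosome's own median 12.0% of the genes lay 2-fold or more away, against 12.2% of the other genes around their own median. The median absolute deviation of the log2 ratio was 0.20 on chromosome 16 and 0.24 elsewhere, a difference that was not tested. The copy number of chromosome 16 in these cells was not measured in the files used here.

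Of the 19 chromosome 16 genes in the lists, 18 were higher on Cast and none on B6, near the 91.9% higher on Cast among all genes of the chromosome. Among these were Mcm4, Cdc45 and Rfc4 of DNA replication, with log2 ratios from -1.39 to -1.13, the pluripotency genes Dppa4 (29.6% B6 ± 1.93), Jam2 (36.1% ± 1.05) and Dppa2 (47.6% ± 1.96), the proteasome subunit Psmd2 (36.8% ± 3.14) and the interferon receptor Ifnar1 (33.3% ± 2.102). Its neighbour in function Ifngr2 did not pass at 51.7% ± 5.71. Ciita, the master activator of MHC class II genes, was the lowest by the naming rule at 0.758% to 2.07% B6 with a median of 1.08%, 79.0-fold higher on Cast (adjusted p = 2.4e-43). Masp1, a complement protease, ran from 2.19% to 7.96%, Erg, an ETS factor of blood and endothelium, from 2.98% to 7.88%, and Tvp23a from 4.61% to 12.2%. Ratios and folds of chromosome 16 genes are relative to the scaling centre, so they include the chromosome's median log2 ratio of -0.98.

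A small set of chromosome 16 genes was higher on B6 in spite of the chromosome's median. Lrrc15 led by the naming rule with 77.1% in the lowest, 82.0% in the median and 86.2% in the highest sample (4.30-fold, adjusted p = 2.9e-27). Nxpe3 ran from 63.7% to 70.2%, Iqcg from 59.1% to 73.7% and Cbr3, a carbonyl reductase, from 58.1% to 78.5%. Olig2, Lsamp and Itgb5 were picked out after their values were seen. Olig2, a neural transcription factor gene, had 545 B6 and no Cast reads, at least 181.7-fold higher on B6, Lsamp was 96.2% B6 ± 2.53, and the integrin gene Itgb5, read deeply with 1696 or more reads a sample, was 65.5% ± 0.906.

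**Figure D5:**
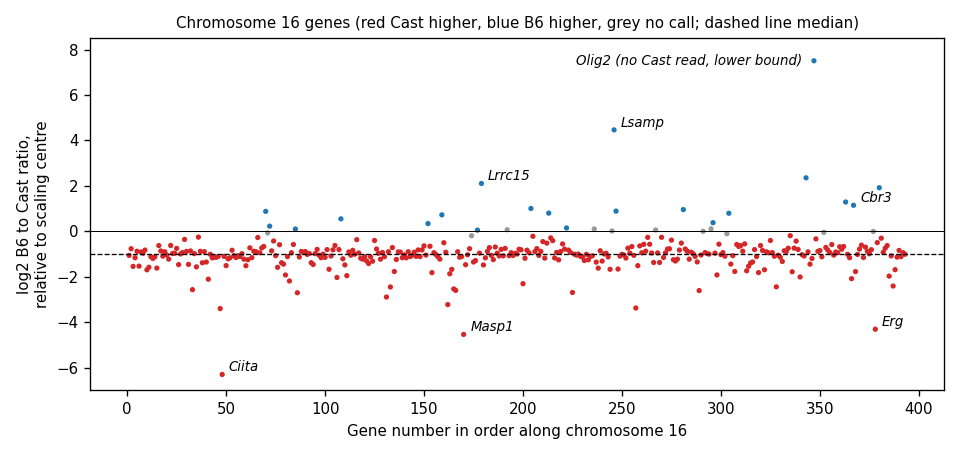
The 393 tested genes of chromosome 16 are placed in their order along the chromosome, with the log2 B6 to Cast ratio relative to the scaling centre on the vertical axis. Most points follow the dashed median at -0.98 from the first gene to the last, the 21 genes higher on B6 are scattered beyond its first part, and Olig2, with no Cast read, is drawn at its lower bound.

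Few allele ratios were called as changing over the time course. In a test of 4 allele-by-time terms (edgeR's quasi-likelihood test), the ratio changed with DOX time in 38 of the 11543 autosomal genes (0.329%). The count was 25 without replicate 1 of 0 h, 24 without replicate 1 of 12 h, 51 without replicate 1 of 4 h and 72 with a replicate block. The 38 included 3 of the named genes. Alk stayed below 3% and Rabgef1 below 23% in every sample, and Sdc2 above 75%. Others of the 38, picked out after their values were seen, crossed an even share. Acat1, a mitochondrial thiolase, had a mean B6 share of 51.9% at 0 h, 35.2% at 4 h and 61% at 24 h, on 70 to 99 allelic reads a sample. Ssbp4 had 62.3% at 8 h and 45.6% at 12 h.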

How the data were processed

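TT-seq was measured in 10 samples of TX1072 cells, sequenced in a single run. Per the study's methods, the authors trimmed reads with Cutadapt, aligned them with STAR to an mm10 genome masked at strain differences (unique alignments, at most 2% mismatches, mapping quality of 7 or more), split them by allele with SNPSplit and counted them by strand with featureCounts 1.5.1 over the longest span of each gene, introns included. The labels also name TopHat2 2.1.0 and bedtools without a role. Removal of duplicates and scaling to spike-in RNA are not given in the sources used here. The deposited tables of the authors give raw B6, Cast and total read counts per gene, and a fraction of B6 over allelic counts, which matched the counts and was present from 10 allelic reads. Deposited starts were read as 0-based and printed with 1 added.

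The B6 and Cast counts of the 10 samples (20 columns) were fitted with edgeR 4.0.16 in R 4.3.3 (robust glmQLFit, glmQLFTest) with an intercept for each sample and 1 allele term, TMM scaling over all columns, and Benjamini-Hochberg adjustment over all genes with 10 or more allelic reads in every sample, 363 X-linked genes included. Values are fold changes by allele and shares as mean ± SD over samples. The time test added 4 allele-by-time terms. The fit was also run on simulated counts with few changed genes, balanced in direction, and the same noise level for all genes. Allele differences in most genes and a shift of chromosome 16 were not simulated, so this does not check the scaling in these data. Leading genes were the 8 largest ratios each way with 50 or more reads, deep genes the 6 largest each way with 1000 or more and a share of 20% to 80%, even genes the 4 smallest ratios with an SE under 0.05, and on chromosome 16 the 4 highest and the 4 lowest; symbols of unnamed genes and imprinted genes were left out. Each list gave its furthest called member each way and its most deeply read one, and Nnt was named whatever its value. Other list members, runs and genes of runs were named after their values were seen. Some genes that these rules name are not reported here. The genes and lists were chosen with earlier results of these data known. Alternatives were no scaling, RLE scaling, DESeq2 1.42.0, limma-voom (limma 3.58.1), read minimums, autosomes alone, 0 h samples alone, samples left out, a replicate block and time terms. A check of promoter sequence features was void, since 77.5% of the genes matched a RefSeq promoter window (GRCm38.p6), under the 80% required.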

Additional observations from a re-analysis of the deposited data

Results flagged for a closer look

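Of 79 sets of 10 sample values examined, 6 held a sample whose gap to the nearest other value exceeded the 95% limit of Dixon's test for 10 values, and chance alone flags about 1 set in 20. Replicate 1 of 0 h accounted for 3 of them. Its reads assigned to an allele were 49.2% of the total count, against 51.7% to 52.8% in the other samples. Its autosomal B6 percent was 51.85, against 52.03 to 52.13, and its median B6 share outside chromosome 16 was 52.33%, against 52.55% to 52.67%. Without this sample 7582 genes were called outside chromosome 16, against 7708 with it, and the chromosome 16 difference was -17.2 percentage points.

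The remaining 3 were genes with few reads of 1 allele. Tmprss11f had its single Cast read in replicate 1 of 12 h, where the B6 share was 99.2%. Bcl2l14 was at 97.3% in replicate 1 of 4 h, against 98.6% to 100% in the others. Nyap2 had its single B6 read in replicate 2 of 0 h, where the B6 share was 0.775%.

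The allele ratio of 3 named genes differed between DOX times by the test of the allele-by-time terms (edgeR's quasi-likelihood test). The adjusted p was 0.0118 for Alk, with B6 shares from 1.21% to 2.61%, 0.0117 for Sdc2, from 75.7% to 82.6%, and 0.0102 for Rabgef1, from 17.7% to 22.5%.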

How the results depend on the processing

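The count of genes called outside chromosome 16 stayed between 6446 and 8745 under all alternatives but 1, as 5121 were called with the 4 columns of 0 h alone, 2227 of them toward Cast. Without scaling between the alleles 2354 genes were higher on Cast instead of 3572, and Nat10 (log2 0.12), Fgfr1 (0.12), E2f3 (0.083) and Psmd1 (0.018) changed sign toward B6. Of 1471 values of 74 named genes under the alternatives, 1458 kept their side of the threshold and, where called, their direction. Genes of 2-fold or more numbered 816 with a minimum of 50 reads (456 on B6, 360 on Cast), where fewer genes were tested, and 2371 without a minimum (1315 and 1056), where 32 genes of chromosome 16 were higher on B6. With a limit of 1.5-fold they numbered 2583 (1451 and 1132). DESeq2 called 6956 genes and limma-voom 7700.

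Whether the replicate numbers pair the samples was not settled. The 10 correlations between times of the replicate deviations ran from 0.0158 to 0.0610, none over 0.1. All were positive, and counting noise in single genes lowers such correlations, so low values cannot exclude pairing. With a replicate block 7727 genes were called outside chromosome 16 and 383 on it. The mean of both replicate series gave a chromosome 16 difference of -17.1 percentage points. Both series are equal in size, so this value had to equal the mean over all samples and is no check. The genes that changed with time numbered 72 with the block, against 38, and from 24 to 51 with 1 sample left out each time. The cause was not tested. Depth limits calls among genes with few reads, and the 10 libraries of 1 line say nothing of other hybrids or of the reciprocal cross.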
